A study of Mus musculus with 28 samples.

Results

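The genes described here encode 8 enzymes that carry pyruvate into and round the citrate cycle, together with 1 kinase that controls the entry step. They are Pdha1, Cs, Idh3a, Ogdh, Suclg1, Suclg2, Fh1, Mdh2 and Pdk4, chosen by name, and all 9 were found among the 18193 genes measured. Together they have 18 of the 34945 probe sets, the groups of oligonucleotides that are each read as 1 signal, that name a single gene and are not array controls. The brightest probe set of a gene, by its mean signal over all 28 arrays, stands for that gene, and the others are given beside it.

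The citrate cycle oxidises acetyl groups in the mitochondrial matrix and passes the electrons to the respiratory chain. Pyruvate enters as acetyl-CoA through the pyruvate dehydrogenase complex, which the pyruvate dehydrogenase kinases, Pdk4 among them, switch off by phosphorylation. In white fat the citrate made by the cycle is also exported to the cytosol, where it is the carbon source of fatty acid synthesis.

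Retroperitoneal fat pads were taken from mice of the strain written C57BK/6J, 9 weeks old. The mice ate a diet with conjugated linoleic acid (CLA), a fatty acid known to reduce body fat in mice, or a control diet. The CLA was the trans-10 cis-12 isomer at 0.5% of the diet. Pads were collected on days 1, 2, 3, 4, 7, 10 and 17, which gives 7 CLA groups and 7 control groups with 2 arrays each. The pads of 10 mice were pooled. The series record speaks of replicated pools and counts 140 mice in all. That number is 10 mice for each of the 14 groups, which would leave both arrays of a group to 1 pool, and p-values within a day would then measure technical spread only. Values are log2 expression as the authors deposited it, and a difference is always CLA minus control on that scale.

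Arrays of the same group correlated at 0.979 to 0.995 over all genes. On 5 arrays the 3′ probe set of Gapdh exceeded the 5′ one by more than 1 (log2), a sign of shortened or less complete RNA. These were both CLA arrays and control replicate 1 of day 1 (1.31, 1.27 and 1.33), CLA replicate 2 of day 3 (1.20) and control replicate 1 of day 7 (1.04). Adipocyte markers, as the labelled tissue requires, were well measured, with gene means between 8.45 and 13.81. Of 10 adipocyte markers 9 fell over all days, and their summed linear signal ran from 35239 to 42212 on the CLA arrays and from 50423 to 66523 on the control arrays. Of 12 macrophage markers 11 rose, with sums of 8162 to 40469 on CLA arrays and 6919 to 13069 on control arrays. Of 7 endothelial markers 5 fell (median -0.85), with sums of 413 to 674 on CLA arrays and 647 to 1118 on control arrays. Of 6 mesothelial markers 4 fell (median -0.48), with sums of 436 to 888 on CLA arrays and 726 to 1361 on control arrays. Fewer cells of a type and less RNA per cell cannot be told apart in such bulk samples, and the part of cell makeup in the results below was not tested.

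All 8 enzyme genes fell over the 7 days of CLA feeding, and the kinase gene Pdk4 did not pass the test. Pdha1, the catalytic alpha subunit of pyruvate dehydrogenase, fell most, to 46.4% of the control level (-1.11 ± 0.07, SE, n = 7 days, limma adjusted p = 1.58e-05). Suclg2, the beta subunit of the GTP-forming succinyl-CoA ligase, fell to 51.0% (-0.97 ± 0.05, adjusted p = 6.82e-06). Mdh2, the mitochondrial malate dehydrogenase, fell least, to 83.8% (-0.26 ± 0.05, adjusted p = 0.00537). Over all genes 19.8% fell and 18.7% rose in this comparison, with a median of -0.03, against a median of -0.58 for the 9 genes.

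**Figure D1:**
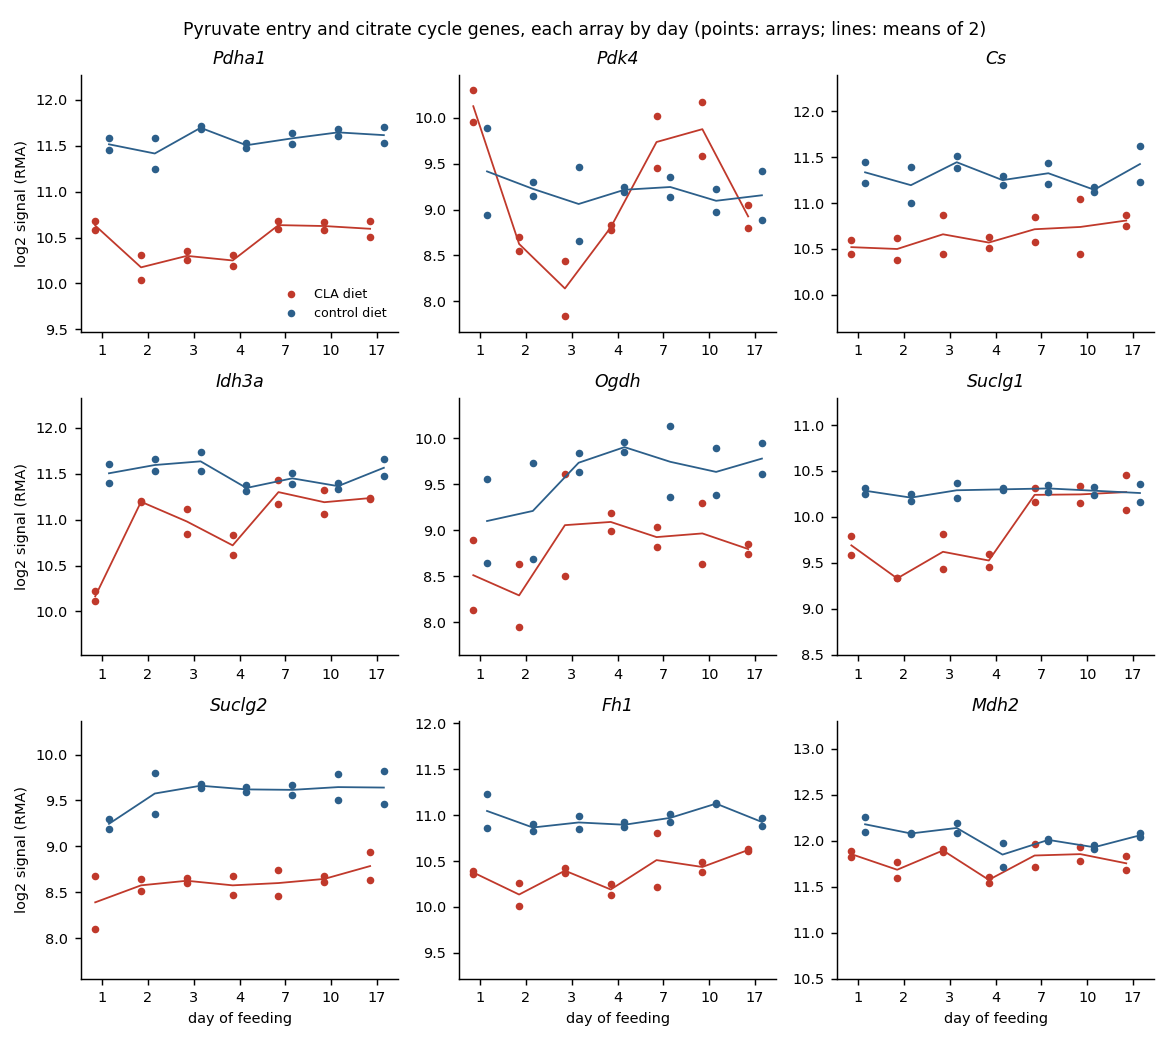
Log2 signal (vertical axis, RMA values) of the 9 genes on each of the 28 arrays by day of feeding (horizontal axis), red for CLA and blue for control, with points for arrays and lines for means of 2. Pdha1, Suclg2 and Cs lie below control on every day, Suclg1 meets the control level on days 7, 10 and 17, and Pdk4 crosses it.

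Pdha1 carries the site that the kinases phosphorylate. On day 1 it read 10.58 and 10.68 on the CLA arrays, against 11.45 and 11.58 on the control arrays. On day 3 the CLA arrays read 10.35 and 10.25 and the control arrays 11.68 and 11.71, the widest gap of the 7 days (-1.40 ± 0.13, SE, n = 2 arrays per diet, adjusted p = 5.25e-07). By day 17 the values were 10.68 and 10.51 with CLA and 11.70 and 11.53 with control (-1.02, adjusted p = 1.48e-05). The 14 CLA arrays lay between 10.04 and 10.68 and the 14 control arrays between 11.25 and 11.71, so no CLA array reached any control array. Pdha1 fell on all 7 days, and each of these calls held when any 1 of the 28 arrays was left out.

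Cs, citrate synthase, joins acetyl-CoA to oxaloacetate at the first step of the cycle. Its signal ran from 10.38 to 11.04 (median 10.61) on the CLA arrays and from 11.00 to 11.62 (median 11.27) on the control arrays. These ranges overlap, but on each day both CLA arrays lay below both control arrays. Over all days Cs was at 63.4% of control (-0.66 ± 0.06, adjusted p = 6.48e-05), and daily differences lay between -0.40 on day 10 and -0.81 on day 1. Cs fell on 6 days, all but day 10. Each of these 6 calls was lost when a certain array of that day was left out, for example control replicate 1 on day 17 (-0.42, adjusted p = 0.29) or CLA replicate 1 on day 7 (-0.47, adjusted p = 0.289). These daily calls rest on the brightest of 3 probe sets. With the most variable one all 6 were lost, at differences of -0.31 on day 4 (adjusted p = 0.675) to -1.06 on day 3 (adjusted p = 0.0523), and with the mean of the probe sets those of days 4 and 7 were lost.

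Idh3a encodes the catalytic subunit of the NAD-dependent isocitrate dehydrogenase. On day 1 it read 10.11 and 10.22 with CLA, against 11.40 and 11.61 with control, a fall to 39.5% of control (-1.34 ± 0.14, adjusted p = 2.15e-06). By day 2 the CLA arrays read 11.20 and 11.19 and the control arrays 11.53 and 11.66, and the difference of -0.40 did not pass (adjusted p = 0.0915). This easing on day 2 holds for the brightest of 4 probe sets. On day 1 the others gave -1.38, -1.44 and -0.20, and the last, at a mean signal of 5.32, gave -0.655 on days 10 and 17. Idh3a fell on day 2 with the most variable probe set (-1.06, adjusted p = 0.0161) and with the mean of all 4 (-0.75, adjusted p = 0.00124), and it fell on day 17 with either (adjusted p = 0.0404 and 0.00189) and on day 10 with the mean (-0.39, adjusted p = 0.0416). Idh3a fell again on days 3 (-0.65) and 4 (-0.62), the second a call lost without CLA replicate 2 of that day (adjusted p = 0.0561). On day 7 the values were 11.17 and 11.43 with CLA and 11.39 and 11.51 with control, so the diets overlapped, and the difference of -0.15 had a 95% interval of -0.45 to 0.15. The difference changed with the day (interaction adjusted p = 0.00485) and was higher by 0.58 ± 0.12 as a mean of days 7, 10 and 17 than of days 1, 2 and 3 (adjusted p = 0.00315). With the most variable probe set neither the interaction (adjusted p = 0.291) nor this late minus early contrast (0.66, adjusted p = 0.0669) passed in limma. Both day 1 CLA arrays and 1 of the control arrays are among those with a wide Gapdh ratio. The day 1 difference ran from -1.45 to -1.24 as each array was left out in turn. Each of those fits kept a day 1 CLA array of wide ratio, so the range does not test RNA quality. Over all days Idh3a was at 69.5% of control (-0.53 ± 0.14, adjusted p = 0.0135), or -0.39 without day 1 (adjusted p = 0.00505).

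Ogdh, the first component of the 2-oxoglutarate dehydrogenase complex, showed a steady difference with wide replicate spread. Over all days it was at 58.1% of control (-0.78 ± 0.06, adjusted p = 3.25e-05), and the daily differences lay between -0.59 on day 1 and -0.98 on day 17. On day 17 it read 8.74 and 8.85 with CLA and 9.95 and 9.61 with control. On day 3 the values were 8.50 and 9.61 with CLA and 9.63 and 9.84 with control. Both CLA arrays lay below both control arrays on 6 of 7 days, but no single day passed in the fit of all 14 groups. With only the 4 arrays of a day, Ogdh fell on days 4 (adjusted p = 0.0021) and 17 (adjusted p = 0.0025). Without the arrays of wide Gapdh ratio Ogdh fell on day 17 (adjusted p = 0.0283). On day 3 this left CLA replicate 1 alone for its diet (-1.24), and on day 7 control replicate 2 alone (-1.21). Both differences thus rest on unequal replicates. Replicate 1 was lower than replicate 2 in 12 of 14 groups, with means of 8.96 and 9.44 over the groups.

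Suclg1 and Suclg2 encode the subunits of 1 enzyme, and their differences ran apart after day 4. Suclg1 encodes the alpha subunit, which also pairs with Sucla2 in the ATP-forming enzyme. On day 1 Suclg1 read 9.59 and 9.79 with CLA and 10.32 and 10.25 with control, and on day 2 it read 9.33 and 9.33 with CLA and 10.17 and 10.25 with control. On day 3 it read 9.43 and 9.81 with CLA and 10.37 and 10.21 with control, and on day 4 9.45 and 9.60 with CLA and 10.31 and 10.29 with control. The diets did not overlap on any of these 4 days, and Suclg1 fell on each, with differences of -0.60, -0.88, -0.67 and -0.77. On day 7 the values were 10.16 and 10.32 with CLA and 10.27 and 10.35 with control, on day 10 they were 10.15 and 10.34 with CLA and 10.24 and 10.33 with control, and on day 17 they were 10.46 and 10.08 with CLA and 10.36 and 10.16 with control. The diets overlapped on all 3 of these days, with differences of -0.07 (95% interval -0.38 to 0.24), -0.04 (-0.35 to 0.27) and 0.01 (-0.30 to 0.32). The interaction passed (adjusted p = 0.0129), as did the late minus early contrast (0.68 ± 0.12, adjusted p = 0.00112), and both held without any 1 of the 28 arrays. The calls of days 1 and 3 were lost without CLA replicate 1 of the same day (-0.49, adjusted p = 0.0765, and -0.48, adjusted p = 0.0665). Over all days Suclg1 was at 74.2% of control (-0.43 ± 0.13, adjusted p = 0.0251), a call lost without day 2, 3 or 4.

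Suclg2 read 8.10 and 8.68 with CLA and 9.19 and 9.30 with control on day 1. On day 4 it read 8.47 and 8.68 with CLA and 9.59 and 9.65 with control, and on day 10 8.68 and 8.61 with CLA and 9.50 and 9.79 with control. On day 17 the values were 8.94 and 8.63 with CLA and 9.82 and 9.46 with control. All 14 CLA arrays lay between 8.10 and 8.94 and all 14 control arrays between 9.19 and 9.82. Suclg2 fell on all 7 days, with differences of -0.85 to -1.04, and its late minus early contrast was 0.01 ± 0.16 (adjusted p = 0.985). Without CLA replicate 1 of day 1 the day 1 call was lost (-0.56, adjusted p = 0.0741), as was that of day 2 without control replicate 2 (-0.77, adjusted p = 0.091) and that of day 17 without CLA replicate 2 (-0.70, adjusted p = 0.0522) or control replicate 1 (-0.68, adjusted p = 0.0565).

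The windows from 250 bases before to 50 bases after the annotated start are shown for Suclg1, Suclg2, Cs and Pdk4. Suclg2 and Cs lay below control on every day, while the differences of Suclg1 and Pdk4 changed with the day. The sequences are RefSeq's on GRCm38.p6, written 5′ to 3′ on the gene's strand, at chr6:73248255-73248554 (plus) for Suclg1, chr6:95718797-95719096 (minus) for Suclg2, chr10:128337477-128337776 (plus) for Cs and chr6:5496229-5496528 (minus) for Pdk4. Capitals mark CCAAT and GGGCGG on either strand.
Suclg1: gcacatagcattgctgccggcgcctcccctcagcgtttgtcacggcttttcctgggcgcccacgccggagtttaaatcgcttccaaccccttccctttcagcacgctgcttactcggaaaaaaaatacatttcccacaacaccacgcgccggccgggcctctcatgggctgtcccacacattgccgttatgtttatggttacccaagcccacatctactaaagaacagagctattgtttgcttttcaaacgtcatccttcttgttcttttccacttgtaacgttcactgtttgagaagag
Suclg2: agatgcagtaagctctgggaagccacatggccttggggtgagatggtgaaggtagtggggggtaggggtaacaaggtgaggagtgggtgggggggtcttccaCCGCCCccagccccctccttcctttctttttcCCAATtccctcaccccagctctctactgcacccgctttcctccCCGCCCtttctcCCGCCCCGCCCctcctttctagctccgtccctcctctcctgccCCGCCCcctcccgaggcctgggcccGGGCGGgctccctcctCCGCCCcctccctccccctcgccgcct
Cs: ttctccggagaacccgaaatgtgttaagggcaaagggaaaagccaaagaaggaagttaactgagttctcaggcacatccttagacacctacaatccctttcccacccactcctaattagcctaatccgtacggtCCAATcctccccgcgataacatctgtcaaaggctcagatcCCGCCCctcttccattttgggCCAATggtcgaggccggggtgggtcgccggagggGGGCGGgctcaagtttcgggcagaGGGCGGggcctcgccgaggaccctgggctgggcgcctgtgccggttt
Pdk4: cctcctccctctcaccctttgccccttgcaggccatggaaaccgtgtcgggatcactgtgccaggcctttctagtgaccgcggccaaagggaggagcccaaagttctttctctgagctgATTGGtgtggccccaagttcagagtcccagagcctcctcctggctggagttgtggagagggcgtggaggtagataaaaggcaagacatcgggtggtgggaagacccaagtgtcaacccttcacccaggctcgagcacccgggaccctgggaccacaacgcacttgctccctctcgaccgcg

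The Suclg2 window held 7 GGGCGG matches, of which those at -61 and -56 share 1 base, and 1 CCAAT match, with 67.7% G and C. The Suclg1 window held neither motif and had 51.0% G and C. The Cs window held 2 CCAAT and 3 GGGCGG matches, and the Pdk4 window 1 CCAAT match. Among all 32851 windows of that length, 37.4% hold CCAAT and 35.7% hold GGGCGG. Motifs named for factors that are known to act on mitochondrial or kinase genes were searched on both strands too: AAGGTCA (ERR, in 4.72% of all windows), CCGGAAGT (ETS, 3.89%) and GTAAACA (FOXO, 3.65%). None of these was found in the windows of Cs, Suclg1, Suclg2, Fh1, Mdh2, Pdha1 or Pdk4, and 1 of the 6 Ogdh windows held 1 ERR match, at -5. Idh3a had no window among those searched. A match is a string of letters, not a measured binding site, and sites spelled otherwise or outside these windows were not searched.

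Fh1, fumarase, turns fumarate into malate. It ran from 10.01 to 10.80 (median 10.38) on the CLA arrays and from 10.83 to 11.23 (median 10.93) on the control arrays, with no overlap. Over all days it was at 66.7% of control (-0.58 ± 0.07, adjusted p = 0.00018), and it fell on days 1, 2, 3, 4 and 10. On day 7 it read 10.22 and 10.80 with CLA and 10.93 and 11.01 with control, a difference of -0.46 with adjusted p = 0.0531. Fh1 passed on that day without CLA replicate 2 (-0.75, adjusted p = 0.0035). Its calls were lost on day 1 without control replicate 1 (-0.48), on day 2 without replicate 2 of either diet and on day 3 without any 1 of that day's 4 arrays.

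Mdh2 closes the cycle by making oxaloacetate from malate. Its arrays ran from 11.54 to 11.96 (median 11.80) with CLA and from 11.72 to 12.26 (median 12.06) with control, and these ranges overlap. Within days the 2 CLA arrays lay below the 2 control arrays on all days but day 10, where they read 11.78 and 11.93 with CLA and 11.91 and 11.95 with control. Daily differences lay between -0.39 on day 2 and -0.08 on day 10, and no single day passed in the fit of all 14 groups (adjusted p = 0.0509 on day 2). With the mean of its probe sets Mdh2 fell on days 2 (-0.49, adjusted p = 0.018) and 17 (-0.40, adjusted p = 0.0339).

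Pdk4 blocks pyruvate oxidation and is known to rise in fasting. On day 1 it read 10.30 and 9.95 with CLA, against 9.89 and 8.94 with control. On day 3 it read 7.84 and 8.44 with CLA and 8.66 and 9.46 with control, and on day 10 9.58 and 10.17 with CLA and 8.97 and 9.22 with control. Both CLA arrays lay above both control arrays on days 1, 7 and 10 and below them on days 2, 3 and 4, and the diets overlapped on day 17 (9.05 and 8.80 with CLA, 9.42 and 8.89 with control). Among the 14 CLA arrays the signal spanned 7.84 to 10.30, and among the 14 control arrays 8.66 to 9.89.

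The daily differences of Pdk4 were 0.71, -0.60, -0.92, -0.41, 0.49, 0.78 and -0.23 in the order of the days, each ± 0.31. Of these the day 3 fall to 52.9% of control passed (adjusted p = 0.0365), and those of day 1 (adjusted p = 0.125) and day 10 (adjusted p = 0.0842) did not. The day 3 call was lost without CLA replicate 1 (-0.62, adjusted p = 0.323) or control replicate 2 (-0.52, adjusted p = 0.419) of that day. The day 1 difference was 1.19 without control replicate 1 of that day and 0.235 without control replicate 2. Control replicate 1 and both CLA arrays of day 1 have a wide Gapdh ratio, and control replicate 2 does not (0.15). The difference changed with the day (interaction adjusted p = 0.04), a call lost on leaving out any of 19 of the 28 arrays. Over all days the mean difference was -0.03 ± 0.22 (adjusted p = 0.944).

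By day, 6 of the 9 genes fell on day 1 (10.8% of all genes fell), 5 on day 2 (5.34%), 7 on day 3 (11.0%), 6 on day 4 (11.3%), 3 on day 7 (8.57%), 3 on day 10 (10.2%) and 3 on day 17 (8.78%). The 3 of day 7 were Cs, Suclg2 and Pdha1, those of day 10 Suclg2, Fh1 and Pdha1, and those of day 17 Cs, Suclg2 and Pdha1. The median of the 9 differences was -0.67, -0.73, -0.68, -0.70, -0.46, -0.40 and -0.33 in the order of the days. Rises numbered 0 on each day in limma (7.96% of all genes rose on day 1, 4.84% on day 2, 11.3% on day 3, 12.8% on day 4, 8.75% on day 7, 10.0% on day 10 and 11.5% on day 17). At an unadjusted p under 0.05, a limit for which the share of all genes is not given here, 1 rise, that of Pdk4, appeared on day 1 and on day 10. The day 2 count was 3 without CLA replicate 2 and 2 without control replicate 2, the day 3 count 3 without CLA replicate 1, and the day 17 count 1 without CLA replicate 2 or control replicate 1, each array being of the same day.

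Both CLA arrays lay below both control arrays for 7 of the 9 genes on day 1 (22.4% of all genes), for all 9 on day 2 (23.5%), day 3 (28.6%) and day 4 (31.4%), for 6 on day 7 (29.6%) and day 10 (33.3%), and for 7 on day 17 (33.4%). They lay above for 1 gene, Pdk4, on day 1 (22.5% of all genes), day 7 (23.7%) and day 10 (23.4%), and for 0 on day 2 (19.0%), day 3 (29.1%), day 4 (28.5%) and day 17 (30.1%). The interaction passed for 3 of the 9 genes, Idh3a, Suclg1 and Pdk4, against 9.82% of all genes. The late minus early contrast was higher for 2, Idh3a and Suclg1, against 6.20% of all genes. Among the control groups alone 0 of the 9 genes varied by day in limma at an adjusted p under 0.05, where 0.115% of all genes did. At an unadjusted p under 0.05 it was also 0 of the 9, and the share of all genes there is not given here.

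**Figure D2:**
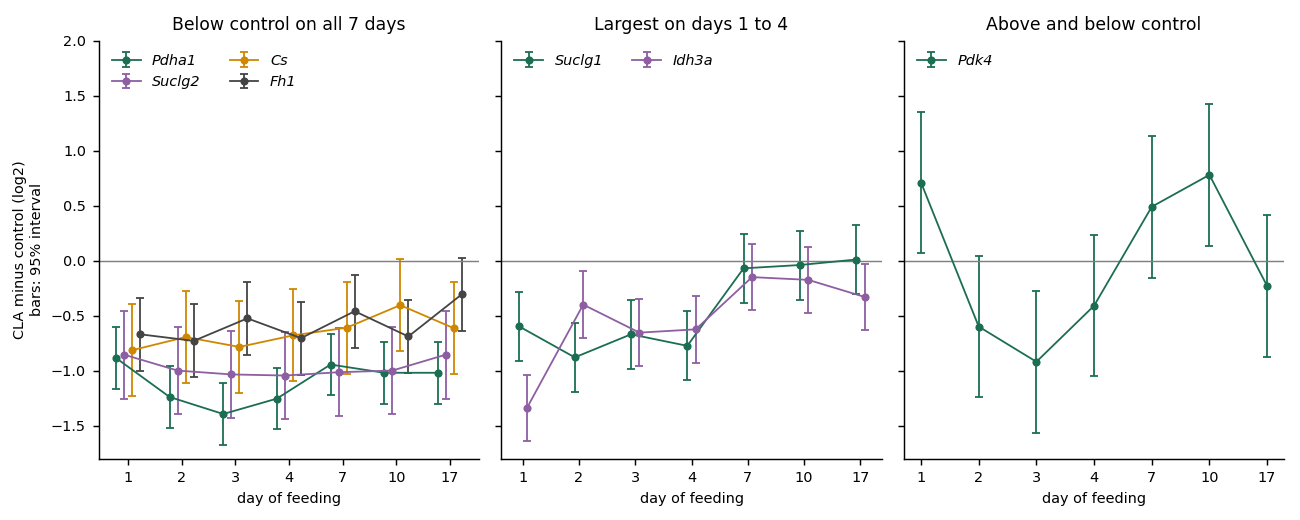
CLA minus control (log2, vertical axis) by day of feeding (horizontal axis) for 7 of the genes, with 95% intervals of the limma model from 2 arrays per diet. Pdha1, Suclg2, Cs and Fh1 lie below 0 on all 7 days, Suclg1 and Idh3a are largest on days 1 to 4, and Pdk4 runs from 0.71 on day 1 through -0.92 on day 3 to 0.78 on day 10.

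Other probe sets of the same genes mostly gave the same direction over all days. The second probe set of Pdha1 gave -1.39, that of Suclg2 -1.01 and that of Mdh2 -0.45, and those of Cs gave -0.41 and -0.59. Those of Idh3a gave -0.77, -0.87 and -0.50, and 1 of these 3 passed the interaction (adjusted p = 0.00525), while the others did not (0.314 and 0.767). For Ogdh the second probe set went the other way (0.27, adjusted p = 0.036), at a mean signal of 4.84 against 9.20 for the one used. Suclg1, Fh1 and Pdk4 have 1 probe set each, so their values have no second reading.

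**Figure D3:**
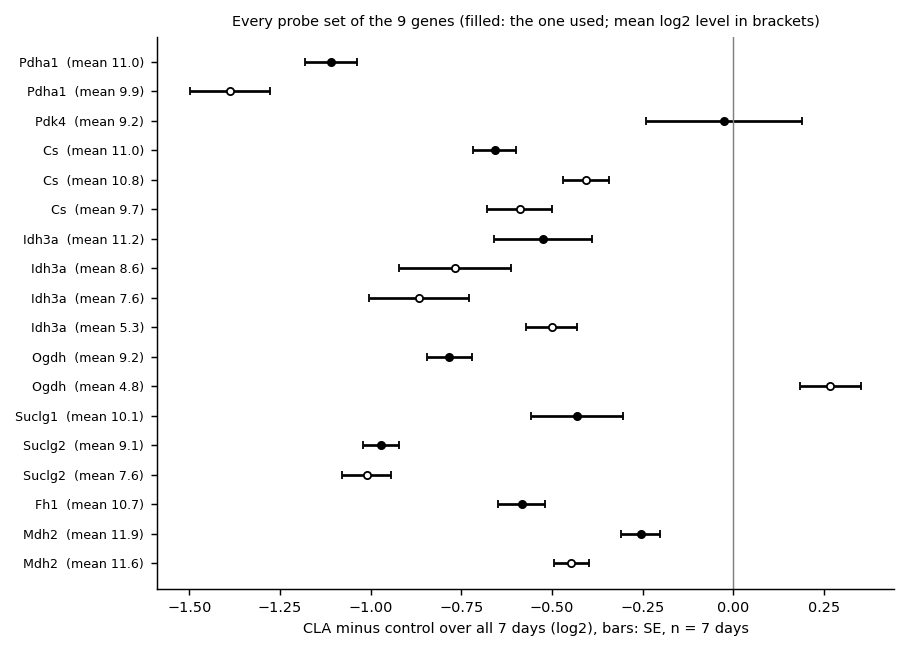
CLA minus control over all 7 days (log2, horizontal axis) for all 18 probe sets of the 9 genes, with the SE over 7 days as bars and the mean log2 level in brackets. Every probe set of the enzymes lies below 0 except the dim one of Ogdh at 0.27, and Pdk4 lies at -0.03.

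Genes around pyruvate entry were lower in most cases. Of 13 further genes of pyruvate entry 11 fell over all days, with a median of -0.79 against -0.03 over all genes. Pcx, pyruvate carboxylase, which makes oxaloacetate, fell to 23.8% of control (-2.07 ± 0.14), and on day 3 it read 8.38 and 9.71 with CLA and 11.47 and 11.80 with control. Mpc1, a subunit of the mitochondrial pyruvate carrier, fell on all 7 days (-1.05 ± 0.11 over all days), as did Dlat, the acetyltransferase of the dehydrogenase complex (-0.999 ± 0.085). The complex's beta subunit Pdhb was the exception on day 1, with 12.42 and 12.36 on CLA arrays and 12.27 and 12.27 on control arrays, and it fell on the 6 later days (-0.70 ± 0.15 over all days). Its interaction passed (adjusted p = 0.000989). Dld, which the complex shares with the 2-oxoglutarate dehydrogenase complex, fell by 0.35 and Pdhx, the binding protein of the dehydrogenase, by 0.34.

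The 4 kinase genes differed in their courses. Pdk1 fell on all 7 days (-1.13 ± 0.07, limma adjusted p = 1.63e-05) and Pdk2 over all days (-1.21 ± 0.12) and on days 3 and 4. Pdk3 fell on day 1, with 5.36 and 5.02 on CLA arrays and 6.12 and 6.15 on control arrays, and rose on days 3, 4, 10 and 17. On day 17 it read 6.84 and 6.74 with CLA and 6.00 and 5.86 with control, a difference of 0.86. Pdk3 did not pass over all days (0.37 ± 0.20, adjusted p = 0.187), and its interaction did (adjusted p = 0.000545). Of the phosphatases that undo the kinases' work, Pdp2 fell by 0.52, and Pdp1 rose on day 17 (1.29) without passing over all days (0.48, adjusted p = 0.0581).

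Within the cycle, 9 of 12 further genes fell over all days, with a median of -0.43. Sdha, the flavoprotein of succinate dehydrogenase, fell on all 7 days (-0.86 ± 0.07). Its iron-sulphur partner Sdhb read 10.28 and 10.16 with CLA and 11.20 and 11.23 with control on day 2. On day 7 Sdhb read 11.29 and 11.30 with CLA and 11.14 and 11.38 with control, so that the diets overlapped (interaction adjusted p = 0.00173). Idh3b and Idh3g, which complete the isocitrate dehydrogenase with Idh3a, fell by 0.45 and 0.75 over all days and passed on days 2, 3 and 4 but not on day 1. Sdhc fell by 0.53 and Dlst, the succinyltransferase of the 2-oxoglutarate complex, by 0.30. Idh2, the NADP-dependent enzyme, fell on day 1 (-1.79) and did not pass over all days (-0.48, adjusted p = 0.0858), nor did Sucla2, the ATP-forming partner of Suclg1 (-0.14, adjusted p = 0.238).

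Of 12 genes of citrate export and the cytosolic steps 6 fell and 4 rose. The citrate carrier Slc25a1 fell to 27.4% of control (-1.87 ± 0.12), ATP citrate lyase Acly to 32.5% (-1.62 ± 0.11), malic enzyme Me1 to 41.3% (-1.27 ± 0.11), and the cytosolic malate dehydrogenase Mdh1 by 0.60. Idh1, the cytosolic isocitrate dehydrogenase, fell on day 1 (-1.62) and did not pass over all days (-0.45, adjusted p = 0.0679). The 4 that rose were the aspartate aminotransferases Got1 and Got2 and the aspartate-glutamate carriers Slc25a12 and Slc25a13. These are part of the malate-aspartate shuttle, whose malate dehydrogenases Mdh1 and Mdh2 fell and whose oxoglutarate carrier Slc25a11 did not pass (-0.36, adjusted p = 0.0973). Got1, the cytosolic aspartate aminotransferase, rose on all 7 days (1.92 ± 0.11), and on day 4 it read 7.66 and 7.83 with CLA and 5.20 and 5.50 with control. The aspartate-glutamate carrier Slc25a13 rose by 1.89 ± 0.33, with 3.55 and 3.85 on CLA arrays and 3.63 and 3.60 on control arrays on day 1 and 6.33 and 5.84 on CLA arrays and 3.15 and 3.23 on control arrays on day 7.

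**Figure D4:**
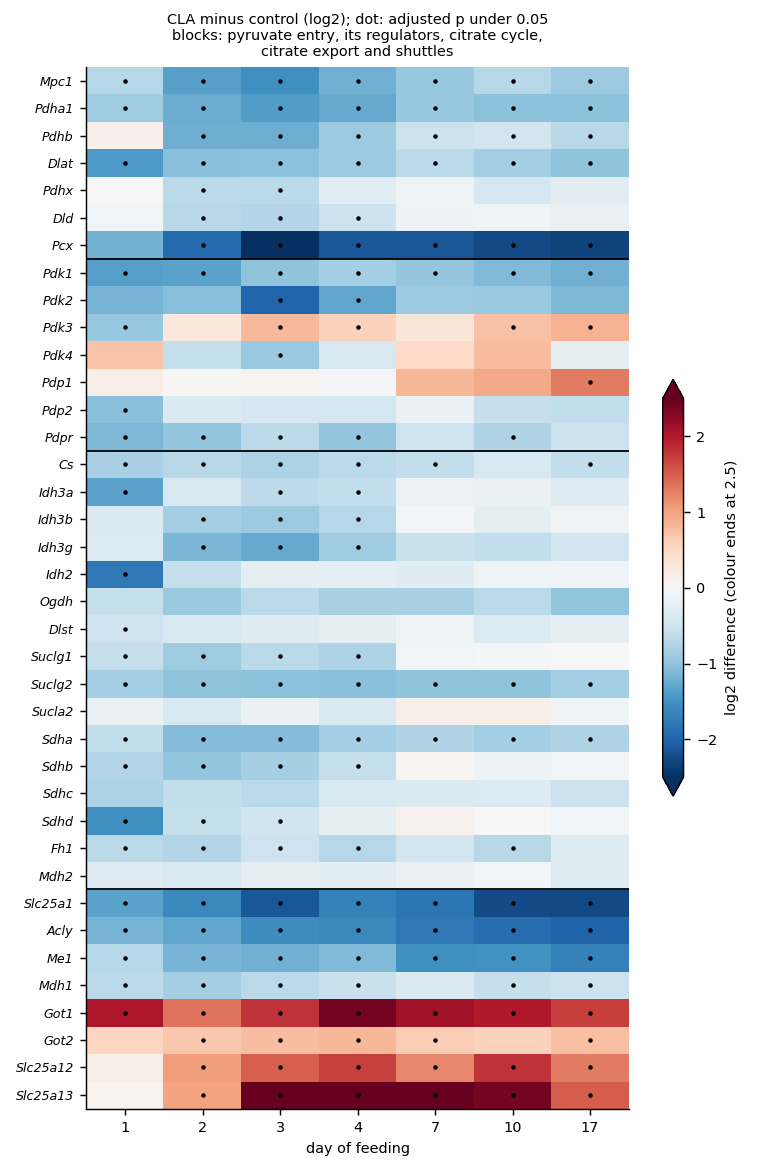
CLA minus control (log2, colour, ends at 2.5) by day of feeding (columns) for the 9 genes and 29 neighbours (rows), blue below and red above control, with a dot where the adjusted p was under 0.05. Blue fills most of pyruvate entry and the cycle, Suclg1, Sdhb and Idh3b are pale from day 7, and the rows of Got1, Got2, Slc25a12 and Slc25a13 are red.

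Genes known to respond to the nuclear receptors or hormones that act on Pdk4 did not move as 1 group. Of 13 measured genes known as targets of PPAR receptors, which Pdk4 also is, 5 rose and 5 fell over all days. Cpt1a, the gatekeeper of fatty acid oxidation in mitochondria, rose on the 6 days after day 1 (0.92 ± 0.19 over all days), and Ehhadh, a peroxisomal oxidation enzyme, fell on all 7 (-1.73 ± 0.12). Of 15 glucocorticoid and FOXO targets 5 rose and 5 fell, among them Mt2, a metallothionein (1.76 ± 0.25), and Klf15, a transcription factor (-2.39 ± 0.13). Foxo1, a forkhead factor that activates Pdk4 in fasting, fell on all 7 days (-1.36 ± 0.10). Of 17 genes of mitochondrial content and biogenesis 2 rose and 4 fell, with a median of -0.06, where 18.7% of all genes rose and 19.8% fell. Polg, the mitochondrial DNA polymerase, differed by -0.35 ± 0.07 and Timm23, part of the import machinery, by -0.29 ± 0.08. Nrf1, of the same list, rose by 0.32 ± 0.07. The Timm23 call was lost on leaving out 1 of the 2 replicate numbers. With the most variable probe set of each gene in place of the brightest, Polg was at 0.22 and did not pass (adjusted p = 0.113).

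The summed signal of the brown adipocyte markers lay below control on the same 4 days as Suclg1, but the 8 markers did not move alike. Of the 8, 5 fell on day 1, 4 on day 2 and 3 on days 3 and 4, while Dio2 rose on day 3 (0.46) and Elovl3 on day 4 (1.34). Their median difference was -1.66, -1.17, -0.97 and 0.19 on these days. The summed linear signal, which the brightest genes weigh most in, ran from 249 to 582 on the CLA arrays of days 1 to 4, against 1338 to 3319 on the control arrays of those days. On days 7 to 17 it ran from 2677 to 9630 on the CLA arrays and from 2258 to 3171 on the control arrays. On each of days 7, 10 and 17, 4 of the 8 markers rose and 0 fell, with medians of 1.16, 1.52 and 0.675. Daily differences of Ucp1, 1 of the 8, ran from -2.13 to 4.695. Cidea, a lipid droplet protein of brown fat, read 5.43 and 6.22 with CLA and 10.50 and 10.16 with control on day 3, and 8.98 and 10.58 with CLA and 9.14 and 9.97 with control on day 7. Over all days 1 of the 8 markers rose and 3 fell, and the part of brown adipocytes in the course of Suclg1 and Idh3a was not tested. Macrophage sums went another way, with 37878 and 40469 on the day 7 CLA arrays and 8875 and 8102 on the day 7 control arrays. Muscle markers varied between arrays of 1 group, with sums of 4709 and 12152 on the day 3 CLA arrays and 24144 and 9688 on the day 3 control arrays.

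**Figure D5:**
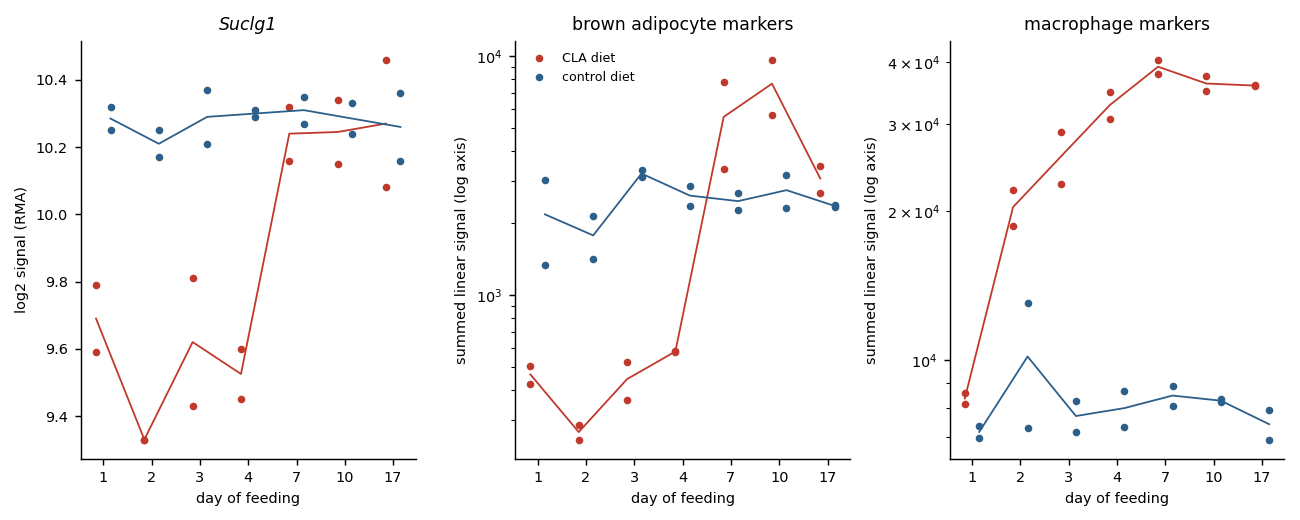
Suclg1 (log2 signal), and the summed linear signal of 8 brown adipocyte and 12 macrophage markers (log axes), by day of feeding, with points for arrays (red CLA, blue control) and lines for means of 2. Suclg1 and the brown marker sums lie below control on days 1 to 4. On days 7 to 17 Suclg1 overlaps control and the brown marker sums lie above it, and macrophage sums lie above control on every day.

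Across the 14 group means the 8 enzyme genes correlated with each other at Pearson r = 0.52 to 0.96, with a median of 0.78, and with Pdk4 at -0.19 to 0.40. The points share arrays and span both diets, so the diet difference itself enters these correlations and those below. Correlation within a diet was not tested, and the values are descriptive. Among 4311 candidate genes those most like Pdk4 were Jmy (0.81), Slc4a4 (0.80), Gabarapl1 (0.78), Pnrc1 (0.78) and Nupr1 (0.77). Those most like Cs were Uck1, Pth1r, Gatd3a and Slc2a4, all at 0.98, and Thtpa (0.97). Slc2a4, the insulin-responsive glucose transporter of fat and muscle, fell to 21.0% of control over all days (-2.25 ± 0.12).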

How the data were processed

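Expression was measured on 28 Affymetrix arrays of mouse retroperitoneal fat, with 14 groups defined by diet and day and 2 arrays in each. The authors deposited log2 values per probe set, processed with RMA per the submitters' processing notes. RMA subtracts background, makes the distributions of all arrays alike and combines the probes of a set. Per the labels' protocols, Trizol was used to extract the RNA, and 15 µg of it went into each biotinylated cRNA. The version and the build behind the probe design are not given in the sources used here. RMA lets no array differ from the others in overall signal, so a shift of all genes would not be seen. The values run from 1.90 to 14.18, array medians lie between 4.1 and 4.2, and precision is limited by the number of arrays.

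Of 45101 probe sets, 34958 name 1 gene, 932 several and 9211 none in the platform annotation, and 64 of all are array controls, which were left out. Gene IDs of 34754 matched the RefSeq table. Each of 18193 genes is represented by its brightest probe set on average, with no filter on dim ones, and 9010 had several. Probe sets of the 9 genes were compared in 1 further fit over all probe sets that name 1 gene.

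limma 3.58.1 in R 4.3.3 fitted the 14 groups with 14 residual degrees of freedom, which gave the daily differences, the diet by day F test, the late minus early contrast and the F test among control groups. For the effect over all days, group means were fitted with a block for each day (6 residual degrees of freedom), which counts the variation among days as error. All tests are two-sided, with Benjamini-Hochberg adjustment over all genes within a comparison, and an adjusted p under 0.05 is called. The code was tested on simulated data. Errors are SE.

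Genes, lists and tests were chosen with earlier results of these data known. Named are the 9 genes, a fixed set of neighbours, from each other list the 4 changed genes of largest effect over all days (text examples are taken from these), and the 5 genes of highest correlation with Pdk4 and with Cs among those with a mean of at least 6 and an SD of group means of at least 0.3. Of 156 listed genes 149 were measured here, and the others were not analysed here. Summed signals add 2 to the power of each log2 value. Alternatives were median centring, another quantile normalisation, other probe set choices, a filter at 5 (log2), robust trend moderation, single-day fits, the replicate number as a block, and leaving out arrays, days or replicates. Leaving out the 5 arrays with a wide Gapdh ratio was added after seeing the data. Figures were drawn with matplotlib 3.10.9.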

Additional observations from a re-analysis of the deposited data

Results flagged for a closer look

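The CLA effect differed between days for 3 of the 9 genes by the interaction test of limma, each with 7 daily differences from 2 arrays per diet. For Idh3a the adjusted p was 0.00485, with daily differences between -1.34 on day 1 and -0.15 on day 7. The test was not passed with the most variable of its 4 probe sets (adjusted p = 0.291). For Suclg1 the adjusted p was 0.0129, with differences between -0.88 on day 2 and 0.01 on day 17. It ranged from 0.0064 to 0.0308 as each of the 28 arrays was left out in turn. For Pdk4 the adjusted p was 0.04, with differences between -0.92 on day 3 and 0.78 on day 10, and it ranged from 0.00985 to 0.0845 in the same way. No explanation of these courses was tested.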

How the results depend on the processing

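Over all 7 days the 8 enzyme genes fell under every alternative run, except that the Suclg1 call did not survive the removal of day 2, 3 or 4 (-0.36, -0.39 and -0.37, with adjusted p of 0.0661, 0.0693 and 0.072). Pdk4 over all days, never called, changed sign without day 2 (0.07), day 3 (0.12), day 4 (0.038) or day 17 (0.0083), and leaving out replicate 1 or replicate 2 of every group gave -0.13 to 0.074. With the most variable probe set, 1 gene passed the interaction and 1 the late minus early contrast as higher. With the mean of probe sets 5 fell on day 17. With only the 4 arrays of a day 1 fell on day 1 and 0 on day 2 in limma, where 6 and 7 had an unadjusted p under 0.05. The share of all genes under that unadjusted limit is not given here, so these 2 counts cannot be weighed. Day 1 keeps no CLA array once those of wide Gapdh ratio are left out, so its differences could not be tested that way. Without the arrays of wide Gapdh ratio 1 rose on day 10, Pdk4 (0.78, adjusted p = 0.0429), and Ogdh passed on day 17. On days 3 and 7 this setting left 1 array for 1 of the diets. Ogdh was then at -1.24 and -1.21. The calls of Idh3a (-0.515) and Fh1 (-0.55) on day 3 and of Cs (-0.725) on day 7 were lost there.

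As each of the 28 arrays was left out in turn, the genes that fell numbered 2 to 6 on day 2, 3 to 7 on day 3 and 1 to 3 on day 17, and those that rose 0 to 1 on day 1 and on day 10. The rise on day 1 appeared without control replicate 1 of day 1, and that on day 10 without either control array of day 1. Uncalled differences that changed sign ran from -0.15 to 0.01 for Suclg1 on day 7, -0.14 to 0.055 on day 10 and -0.18 to 0.20 on day 17, and from -0.49 to 0.035 for Pdk4 on day 17. The late minus early contrast ran from -0.28 to 0.09 for Ogdh and from -0.09 to 0.10 for Suclg2. Other uncalled values with a changed sign were Suclg1 on day 10 with median centring (0.01), Suclg2 late minus early after another quantile normalisation (-0.022) and Ogdh late minus early with the mean of probe sets (0.01), and Polg over all days, called as a fall, was at 0.22 with the most variable probe set. The causes were not tested.

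Replicate numbers were not taken as pairs, since no label ties them to a shared batch and the deviations of same-numbered CLA and control arrays, which correlated at 0.0977 (day 7) to 0.566 (day 1), did not exceed 0.1 on all 7 days. They did on 6, which is a hint of pairing from the data. With the replicate number as a block (replicate block), 5 genes fell on day 7, where Ogdh (adjusted p = 0.0433) and Fh1 (adjusted p = 0.0456) joined, Ogdh also passed on days 2, 4 and 17, and Mdh2 passed on day 2 (adjusted p = 0.039). Calls over all genes numbered 4060 on day 1 with the block and 3420 without, and 2354 and 1852 on day 2. Of the values that answer a comparison 779 stayed the same, 15 counts moved, 5 values changed sign and 3 calls were lost. Of the others 3867 stayed the same, 28 changed sign, 130 calls were lost and 57 gained. The same means direction and side of the threshold for a difference and side alone for an F test. For a count it means that it stayed within a fixed ratio of the main count. Leaving out an array of another day cannot change a day's difference, only its error. Many values therefore kept their direction by design, and the numbers that stayed the same do not measure robustness. Precision within a day rests on 2 arrays a group.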
